A study of Mus musculus with 4 samples.

Results

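Kruppel-like factors (KLFs) are transcription factors that bind DNA through zinc fingers at their C-terminal end. Of the 34745 genes in the expression table, 17 carry a Klf symbol, and 9 of them are described here: Klf3, Klf4, Klf6, Klf7, Klf9, Klf10, Klf11, Klf12 and Klf13. They are the family members other than Klf2 and 7 further genes that are given beside them, and they were chosen with earlier results of these data known. The study sequenced RNA of CD4+ T cells from C57BL/6 wild-type animals in 4 libraries, 1 library per group. The naive library was made from splenic CD4+ T cells without culture. The Th0 library came from a 3-day culture with stimulation of CD3 and CD28. The cultures for Th17 and for Treg, each under its own differentiation conditions, also lasted 3 days. Of the cytokines, the age and number of mice and any sorting beyond CD4, the sources used here say nothing.

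The family recognises CACCC boxes and GC-rich boxes in promoters, and the members differ in what their N-terminal parts recruit. KLF3 and KLF12 bind the corepressor CtBP, whereas KLF9, KLF10, KLF11 and KLF13 recruit the SIN3 histone deacetylase complex. KLF4, KLF6 and KLF7 belong to the branch that mainly activates, with KLF2, the factor that keeps resting T cells quiescent and recirculating. KLF10, also called TGF-beta inducible early gene 1, and its close relative KLF11 were named for their response to TGF-beta, the cytokine that promotes Foxp3 in T cells.

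The stretches before the transcription starts of 5 members are shown because they are the genes with the widest spread between libraries or with opposite differences from Th0, and because they hold the boxes that KLF proteins themselves recognise. Capitals mark each CACCC box (CACCC or GGGTG on the printed strand) and each GC box (GGGCGG or CCGCCC), which can overlap. All are from RefSeq, build GRCm38.p6, printed 5′ to 3′ along the gene's strand, and end before the outermost start that GENCODE or RefSeq gives.
Klf3 (chr5:64803271-64803387, plus strand): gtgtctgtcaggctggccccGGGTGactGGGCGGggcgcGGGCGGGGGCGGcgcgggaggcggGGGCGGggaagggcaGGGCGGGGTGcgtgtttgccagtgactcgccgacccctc
Klf4 (chr4:55532476-55532725, minus strand): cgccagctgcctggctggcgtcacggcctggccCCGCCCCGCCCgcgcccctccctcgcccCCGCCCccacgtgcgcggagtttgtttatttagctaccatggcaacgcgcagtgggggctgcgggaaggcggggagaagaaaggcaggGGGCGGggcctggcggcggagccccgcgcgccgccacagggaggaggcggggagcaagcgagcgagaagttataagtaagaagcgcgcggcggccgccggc
Klf9 (chr19:23140976-23141225, plus strand): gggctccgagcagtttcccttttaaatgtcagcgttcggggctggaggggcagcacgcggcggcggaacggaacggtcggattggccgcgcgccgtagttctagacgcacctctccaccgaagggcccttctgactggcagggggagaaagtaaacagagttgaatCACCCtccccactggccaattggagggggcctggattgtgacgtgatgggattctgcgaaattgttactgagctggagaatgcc
Klf11 (chr12:24651121-24651273, plus strand): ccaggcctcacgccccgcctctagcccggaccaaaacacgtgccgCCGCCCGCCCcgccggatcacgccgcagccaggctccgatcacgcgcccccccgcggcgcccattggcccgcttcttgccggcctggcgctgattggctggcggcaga
Klf13 (chr7:63938916-63939165, minus strand): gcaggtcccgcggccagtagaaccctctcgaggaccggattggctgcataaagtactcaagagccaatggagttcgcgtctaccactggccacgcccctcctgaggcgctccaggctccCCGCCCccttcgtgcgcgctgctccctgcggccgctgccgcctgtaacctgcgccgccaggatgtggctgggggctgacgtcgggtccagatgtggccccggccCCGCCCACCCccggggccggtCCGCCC

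Of the 9 members, 8 had a promoter entry in RefSeq's table, and Klf10 had none. In the 250 bases before each start in that table, a GC box stood in 6 of 8 members and in 32.7% of 32851 promoters of the same length. A CACCC box stood in 5 of 8 members and in 52.0% of all promoters. Klf3 held the most of both, with 5 CACCC boxes and 6 GC boxes, while Klf4 and Klf11 held 4 GC boxes each and no CACCC box. Klf9, the member without a GC box among those shown, had 1 CACCC box, and Klf13 had 1 CACCC box and 3 GC boxes. The windows were rich in G and C, at 48.0% to 78.4% (median 68.2%) against a median of 52.4% over all promoters. The stretches printed for Klf3 and Klf11 are shorter than these windows and show 2 CACCC boxes and 5 GC boxes, and 2 GC boxes. RefSeq's starts are not always the outermost ones. By the positions in the expression table, the Klf7 window lies inside the gene and the Klf3 window runs past its start, and by GENCODE the Klf12 window lies inside the gene and the Klf11 window runs past its start. Boxes counted in those 4 windows are therefore partly or wholly behind an annotated start. These matches describe the letters of the window only.

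Total counts ran from 10256627 to 12414372 per library, and 1 count was worth 0.0766 to 0.114 CPM, the count scaled to a fixed library size after TMM normalization. With 1 library per group, no difference has a replicate check, and every interval given is a 95% exact counting interval, which covers counting error only. In bulk RNA, fewer cells of a type and less RNA per cell cannot be told apart. The T cell markers (Cd3e, Cd4, Lck and 7 others) summed to 3694 CPM in the naive library and to 5087, 4238 and 4508 CPM in Th0, Th17 and Treg. The naive library also held transcripts of other blood cells: macrophage and monocyte markers summed to 4896 CPM there and 36.7 to 68.1 CPM in the cultured libraries, B cell markers to 3923 and 110 to 468 CPM, and neutrophil markers to 1658 and 1.37 to 6.36 CPM. Dendritic cell markers summed to 462 CPM in naive and 112 to 165 CPM in culture, and the markers of CD8 T and NK cells to 143 and 125 to 267 CPM. These sums hide opposite members. By the 2-fold rule given below, 8 of 10 dendritic cell markers were lower than naive in each culture, while Batf3 was higher in Th17 and Treg. Of 8 CD8 T and NK markers, 5 were lower in Th0, 5 in Th17 and 4 in Treg, while Gzma was higher in each. The shares of all genes called lower were 27.2%, 17.4% and 16.8%. All comparisons with naive below carry these differences in the markers of other cells, and their part in the values of Klf3, Klf6, Klf11 and Klf13 was not tested.

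Per length, on the authors' FPKM scale, Klf6 and Klf13 made up most of the transcripts of the 9 genes. Together they held 72.0% of the summed FPKM of the 9 genes in naive cells, and 73.9%, 64.0% and 67.4% in the Th0, Th17 and Treg cultures. The sum itself was 219.7 FPKM in naive and, after culture, 67.5 (Th0), 86.6 (Th17) and 103 (Treg), so the naive library was the highest and Th0 the lowest. The makeup differed between the cultures: Klf6 alone held 60.6% of the sum in Th0 and 32.2% in Th17, Klf7 held 10.7% in Th0 and 18.4% in Th17, and Klf10 held 4.69% in Th0 and 12.4% in Treg. Klf2 had 244 FPKM in naive, which was 50.5% of the summed FPKM of all 17 Klf genes, against 11.5% in Th0, 19.2% in Th17 and 26.9% in Treg.

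**Figure D1:**
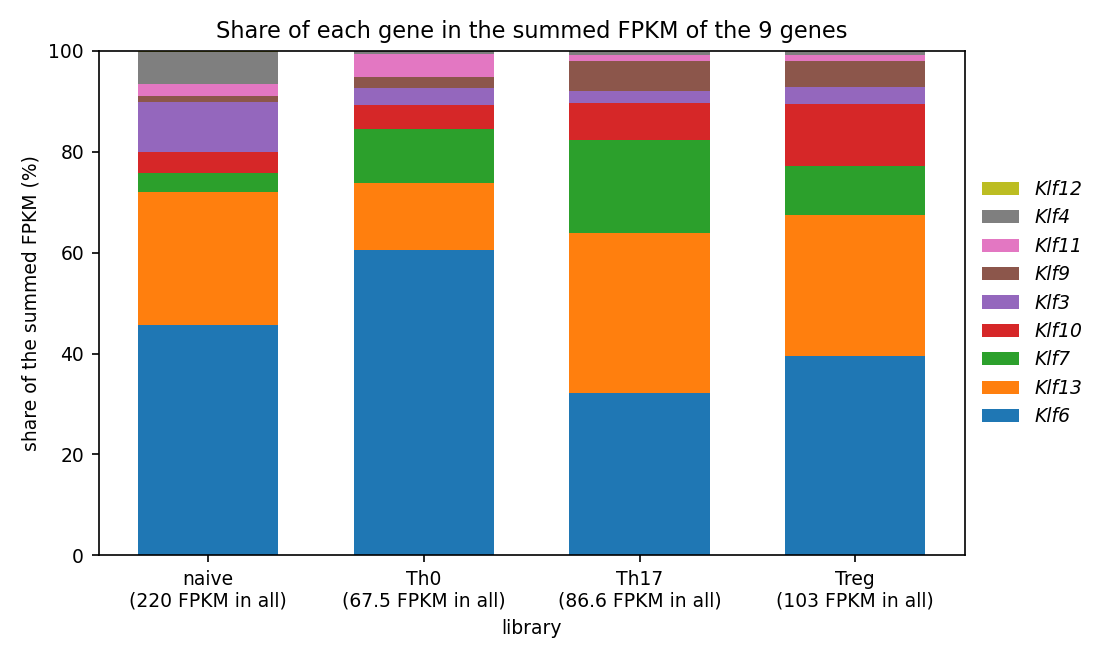
Share (%) of each of the 9 genes in their summed FPKM, per library, with the sum under each bar. Klf6 and Klf13 fill 64.0% to 73.9% of every bar, and the Klf7 share is largest in Th17 (18.4%).

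A call of higher or lower needed a ratio of at least 2-fold, on the log2 scale after adding 1 CPM to both levels, and needed that the counting interval of the count ratio excluded equality. Genes with at least 10 counts in either library were compared. Klf12 never reached that and was left out, so 8 of 9 members were compared in each pair of libraries. In Th0 against naive, 5 members were called lower (Klf3, Klf4, Klf6, Klf10 and Klf13) and 0 higher, where 27.2% of 13995 genes were called lower and 18.5% higher (45.7% in either direction). In Th17 against naive, 5 were lower (Klf3, Klf4, Klf6, Klf11 and Klf13) and 1 higher (Klf9), against 17.4% lower and 15.6% higher of 14523 genes (33.1% in either direction). In Treg against naive, 5 were lower (Klf3, Klf4, Klf6, Klf11 and Klf13) and 1 higher (Klf9), against 16.8% and 14.9% of 14350 genes (31.7% in either direction). These 3 comparisons share the naive library. On the same scale with 1 CPM added, the median log2 ratio of the compared members was -1.08, -1.48 and -1.22 in that order, beside -0.13, -0.00069 and -0.017 over all genes compared.

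Of the cultured libraries, Th17 against Th0 had 2 members higher (Klf9 and Klf13) and 1 lower (Klf11), where 20.4% of 13324 genes were called higher and 12.2% lower (32.6% in either direction). Treg against Th0 had 3 higher (Klf9, Klf10 and Klf13) and 1 lower (Klf11), against 20.2% and 11.9% of 13138 genes (32.1% in either direction). Both comparisons share the Th0 library, and their median log2 ratios over the compared members were 0.41 and 0.30, beside 0.097 and 0.081 over all genes compared. With library totals in place of TMM, the split of all calls moved: 1884 genes higher and 4482 lower in Th0 against naive (2590 and 3803 with TMM), 3528 and 922 in Th17 against Th0 (2720 and 1622), and 3629 and 810 in Treg against Th0 (2658 and 1565). Under that scaling Klf7 joined the higher calls of Th17 against Th0, and the other member calls of these 3 comparisons stayed the same. Th17 against Treg had 0 members called in either direction, where 1.94% of 13346 genes were called higher and 1.21% lower (3.15% in either direction). Even so, 4 members compared there (Klf3, Klf6, Klf7 and Klf10) differed between Th17 and Treg beyond counting error. Over all 54 pairs of libraries within a member, 42 differed beyond counting error. For this looser criterion no share over all genes is given here, and small ratios meet it where counts are large. Neither count is therefore read as a trait of the members.

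**Figure D2:**
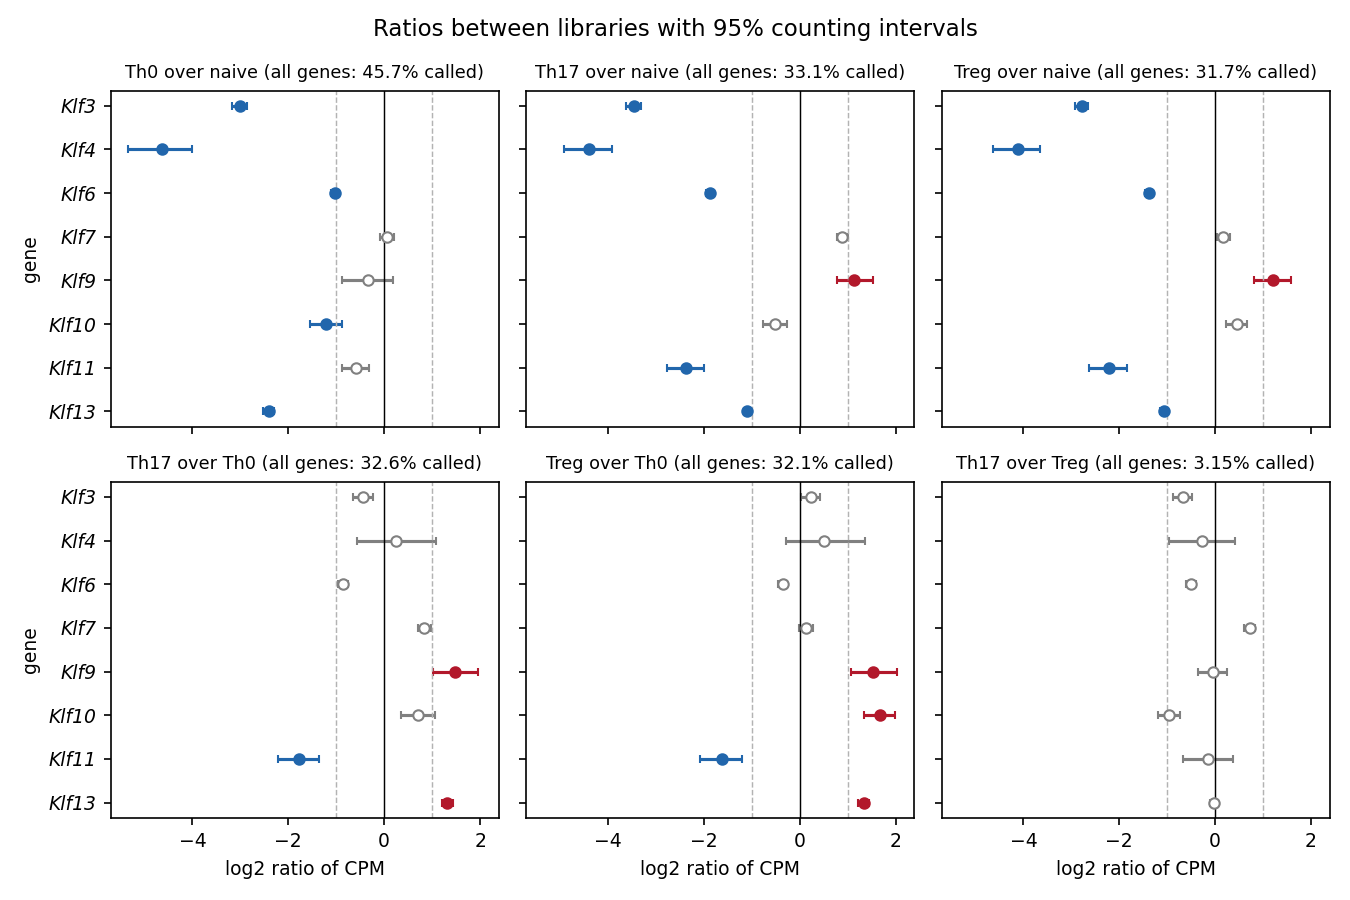
Log2 ratio of CPM (no value added) of 8 genes in 6 comparisons, with 95% counting intervals; filled points met the 2-fold rule (red higher, blue lower), open points did not, and dashed lines mark 2-fold. The 3 panels against naive hold 5 lower calls each, and the panel of Th17 against Treg holds 0 calls.

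The first group of members was highest in the naive library. Klf3 (ENSMUSG00000029178, chromosome 5, 64803388 to 64832901, GRCm38) encodes a CtBP-dependent repressor. It had 309.9 CPM in naive (counting interval 300.1 to 319.9), 38.4 in Th0 (34.4 to 42.7), 28.3 in Th17 (25.5 to 31.3) and 45.0 in Treg (41.1 to 49.1). The naive level thus stood far above the others, and the cultured levels followed in the order Treg, Th0, Th17. Klf3 was 8.07-fold lower in Th0 than in naive (interval 7.22 to 9.05), 11-fold lower in Th17 (9.85 to 12.2) and 6.89-fold lower in Treg (6.27 to 7.57). Th17 was also 1.59-fold below Treg (1.39 to 1.83), less than the 2-fold rule asks. The step from Treg to Th0 was 1.17-fold (1.02 to 1.35) and fell within counting error with DESeq2 size factors, as did the step from Th0 to Th17 with library totals. Klf3 has an antisense gene over its exons, Gm20033, with 36, 3, 2 and 6 counts in naive, Th0, Th17 and Treg, and reads of the pair cannot be told apart where strand is not given. On the same strand, C230096K16Rik overlaps the gene outside its exons, with 161, 10, 4 and 2 counts in the same order. Stretches of at least 100 bases of Klf3 transcripts, at 95% identity or more, also stand in transcripts of 68 other genes, none of them a Klf gene.

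Klf4 (ENSMUSG00000003032, chromosome 4, 55527143 to 55532466) encodes a factor known for restraining cell division and for its part in pluripotency and in monocytes. It had 731 counts in naive and 21 in Th0, 37 in Th17 and 38 in Treg, that is 59.5 CPM (55.3 to 64.0), 2.40 (1.48 to 3.67), 2.83 (2.0 to 3.91) and 3.43 (2.43 to 4.70). The naive level was the only high one, and the 3 cultured levels did not differ beyond counting error. Its fold was the widest among the members: 24.8-fold lower in Th0 than in naive (16.1 to 40.3), 21.0-fold in Th17 (15.1 to 30.1) and 17.4-fold in Treg (12.5 to 24.7). Between Th17 and Th0 the interval of the ratio ran from 0.674 to 2.12. All 12 macrophage and monocyte markers were also called lower in each cultured library than in naive. The shares of all genes called lower were 27.2%, 17.4% and 16.8% in Th0, Th17 and Treg. The sum of these markers stood at 0.749% of its naive value in Th0, 1.31% in Th17 and 1.39% in Treg. Klf4 stood at 4.03%, 4.76% and 5.76% of its naive level in the same libraries. The fall was not particular to that list, since 12 of 12 B cell and 9 of 9 neutrophil markers were also called lower in each culture. The erythroid and platelet sum stood at 2.92%, 4.18% and 3.89% of its naive value in Th0, Th17 and Treg, and the B cell sum at 11.9%, 5.98% and 2.80%. No macrophage or monocyte marker had 0 counts in any library. The part of any of these cell types in the Klf4 level was not tested.

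Klf6 (ENSMUSG00000000078, chromosome 13, 5861489 to 5870393) encodes an activator first described as an early response gene. It had the highest FPKM of the 9 genes in all 4 libraries (in Th17 by a narrow margin, 27.9 against 27.5 for Klf13), above 97.6% of the genes with at least 10 counts in naive and above 87.1% to 91.8% of them in culture. Its level was 410.5 CPM in naive (399 to 422), 202 in Th0 (193 to 212), 112 in Th17 (106 to 118) and 158 in Treg (151 to 166). The order was naive, Th0, Treg and Th17, and each step exceeded counting error. Th0 was 2.03-fold below naive (1.92 to 2.14), at the edge of the 2-fold rule, while Th17 was 3.67-fold (3.46 to 3.89) and Treg 2.59-fold (2.46 to 2.74) below it. The step between Th0 and Treg was 1.28-fold (1.20 to 1.37) and 1.01-fold with library totals (0.944 to 1.08), so that order depends on the scaling.

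Klf13 (ENSMUSG00000052040, chromosome 7, 63886351 to 63938915), whose product is also known as RFLAT-1 and binds the promoter of the chemokine gene Ccl5, ranked next after Klf6 by FPKM in naive, at 57.8 against 100.5. It stood at 471 CPM in naive (459 to 483), 88.6 in Th0 (82.5 to 95.1), 219.9 in Th17 (212 to 228) and 224 in Treg (215 to 233). Naive was high, Th0 was low, and Th17 and Treg lay together between them, with a ratio of 0.983 (0.931 to 1.04). Klf13 was 5.31-fold lower in Th0 than in naive (4.93 to 5.73), and 2.48-fold (2.29 to 2.69) and 2.52-fold (2.33 to 2.74) higher in Th17 and Treg than in Th0. Against naive, it was 2.14-fold lower in Th17 (2.05 to 2.24) and 2.11-fold lower in Treg (2.01 to 2.21); on the FPKM scale the Treg call was lost. Ccl5 itself was also highest in naive, at 64.7 CPM, with 4.91 CPM in Th0, 3.45 in Th17 and 7.21 in the Treg library.

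Klf11 (ENSMUSG00000020653, chromosome 12, 24651371 to 24662774) encodes a SIN3-dependent repressor. It had 26.9 CPM in naive (24.0 to 29.9), 17.8 in Th0 (15.1 to 20.8), 5.21 in Th17 (4.05 to 6.60) and 5.77 in Treg (4.44 to 7.37). It was the 1 member called lower in Th17 than in Th0, by 3.42-fold (2.56 to 4.62), and in Treg than in Th0, by 3.09-fold (2.29 to 4.20). From naive to Th0 it was 1.51-fold lower (1.24 to 1.84) and had no call, and Th17 and Treg did not differ beyond counting error (0.903, 0.632 to 1.29). On the authors' FPKM with 1 FPKM added, the log2 ratios against Th0 were -0.95 for Th17 and -0.85 for Treg, just short of 2-fold.

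Klf12 (ENSMUSG00000072294, chromosome 14, 99874486 to 100149764), the gene of a CtBP-binding repressor, was at the edge of detection. It had 8 counts in naive cells, and 0, 1 and 0 in the Th0, Th17 and Treg cultures, and the limit of 3 counts set for a zero is 0.343 CPM in Th0 and 0.271 in Treg. The upper ends of the 95% exact intervals of these zeros are higher, at 0.421 and 0.333 CPM. Its interval in the table ends 3854 bases before the 3′ end that GENCODE gives, and begins 134915 bases after GENCODE's 5′ end. Its model length, worked back from the FPKM, was 1856 bases, so reads beyond that model may not be in the count. Stretches of Klf12 transcripts also stand in transcripts of 7 other genes, by the limits of length and identity used for Klf3.

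**Figure D3:**
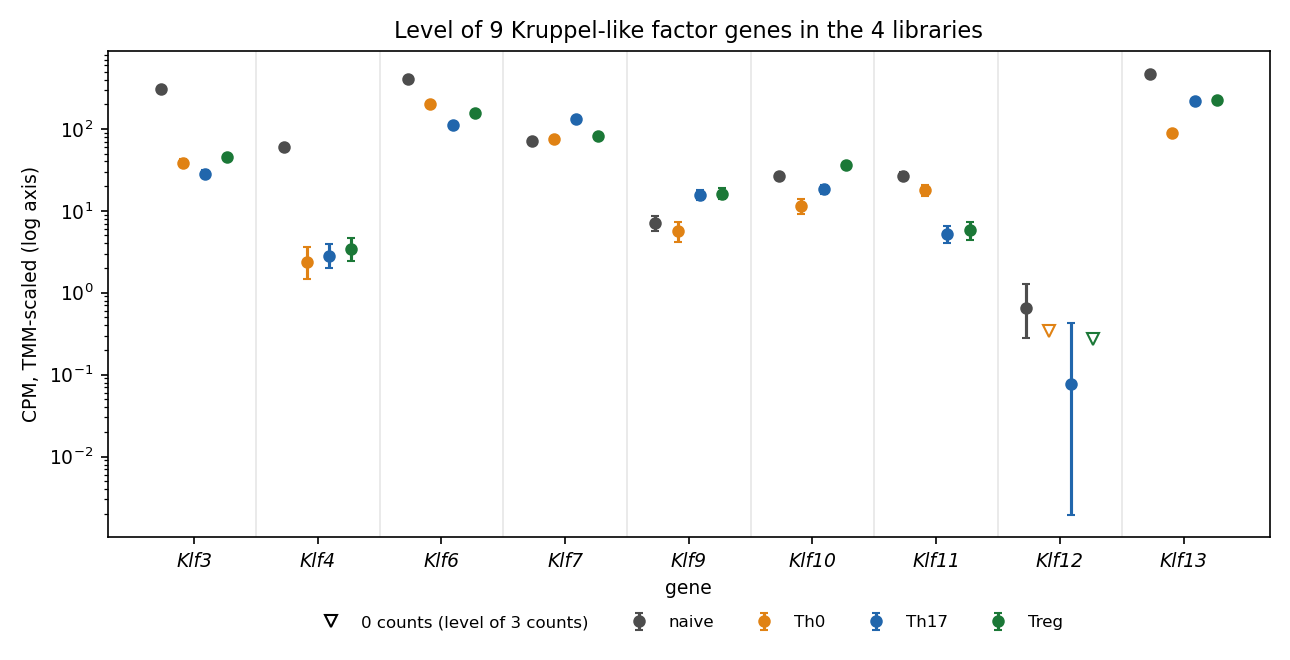
CPM (log axis) of each of the 9 genes in the naive, Th0, Th17 and Treg libraries, with 95% Poisson counting intervals; open triangles give the level of 3 counts where a library had 0 counts. Klf3, Klf4, Klf6, Klf11, Klf12 and Klf13 are highest in naive, Klf7 in Th17, and Klf9 and Klf10 in Treg.

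The other 3 members were highest in a cultured library. Klf9 (ENSMUSG00000033863, chromosome 19, 23141226 to 23166911) encodes a SIN3-dependent repressor that is known as a target of glucocorticoid and thyroid hormone receptors. It had 87 counts in naive and, after culture, 49 (Th0), 204 (Th17) and 180 (Treg), or 7.08 CPM (5.67 to 8.73), 5.60 (4.14 to 7.4), 15.6 (13.6 to 17.9) and 16.2 (14.0 to 18.8). The levels formed a low pair, naive and Th0, and a high pair, Th17 and Treg, with no difference beyond counting error inside either pair. With library totals the low pair separated, naive being 1.53-fold above Th0 (1.07 to 2.22). Klf9 was 2.79-fold higher in Th17 than in Th0 (2.04 to 3.90) and 2.90-fold higher in Treg (2.10 to 4.06). Against naive it was 2.21-fold higher in Th17 (1.71 to 2.87) and 2.29-fold higher in Treg (1.77 to 3.00). The Th17 call against naive was lost with DESeq2 size factors, and both calls against naive were lost with 5 CPM added or on the FPKM scale. The Th17 call against Th0 was also lost with 5 CPM added, at a log2 ratio of 0.96.

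Klf10 (ENSMUSG00000037465, chromosome 15, 38294413 to 38300707) was the member with the widest difference between Th17 and Treg. Its counts were 323 in naive and, after culture, 99 (Th0), 240 (Th17) and 398 (Treg), or 26.3 CPM (23.5 to 29.3), 11.3 (9.19 to 13.8), 18.4 (16.1 to 20.9) and 35.9 (32.5 to 39.6). The order was Treg, naive, Th17 and Th0, and each step exceeded counting error. Klf10 was 3.17-fold higher in Treg than in Th0 (2.54 to 4.0) and 2.33-fold lower in Th0 than in naive (1.85 to 2.94). Th17 was 1.63-fold above Th0 (1.28 to 2.08) and 1.95-fold below Treg (1.66 to 2.30), and neither met the 2-fold rule. With 5 CPM added, the call of Th0 against naive was lost. GENCODE extends this gene 2950 bases beyond the 3′ end that the table gives.

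Klf7 (ENSMUSG00000025959, chromosome 1, 64029447 to 64122282), best known for its part in neuronal growth, met the rule in 0 of 6 comparisons. It had 72.1 CPM in naive (67.5 to 77.0), 74.7 in Th0 (69.1 to 80.7), 134 in Th17 (128 to 140) and 81.3 in Treg (76.1 to 86.8). Only the Th17 library was high: it was 1.85-fold above naive (1.71 to 2.01), 1.79-fold above Th0 (1.64 to 1.96) and 1.64-fold above Treg (1.52 to 1.78). Th17 was called higher than Th0 with library totals, at a log2 ratio of 1.13, and on the FPKM scale, at 1.04. With library totals, naive stood above Th0. The antisense gene Gm26649 lies over exons of Klf7, with 1, 0, 1 and 0 counts in naive, Th0, Th17 and Treg.

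Immediate early genes, which resting cells switch on within minutes of a stimulus or of handling, are given because Klf4, Klf6 and Klf10 are counted among early response genes. This list of 10 was added after earlier values were seen. All 10 were called lower in Th0 than in naive, beside 27.2% of all genes. Against naive, 8 of 10 were lower in Th17, beside 17.4% of all genes, and 8 of 10 in Treg, beside 16.8%. Their sum was 6386 CPM in naive cells, and 711, 1598 and 1250.2 in the Th0, Th17 and Treg cultures, with Fos at 799, 5.37, 10 and 11.1 CPM. Klf6 stood at 49.3%, 27.3% and 38.5% of its naive level in Th0, Th17 and Treg, while the sum of the list stood at 11.1%, 25% and 19.6%. Klf4 was below the list's percentages in all 3, at 4.03%, 4.76% and 5.76%. Klf10 was above them, at 43.0% and 69.9% in Th0 and Th17, and at 137% in Treg it exceeded its naive level. The part of handling or stimulation in the naive levels was not tested.

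**Figure D4:**
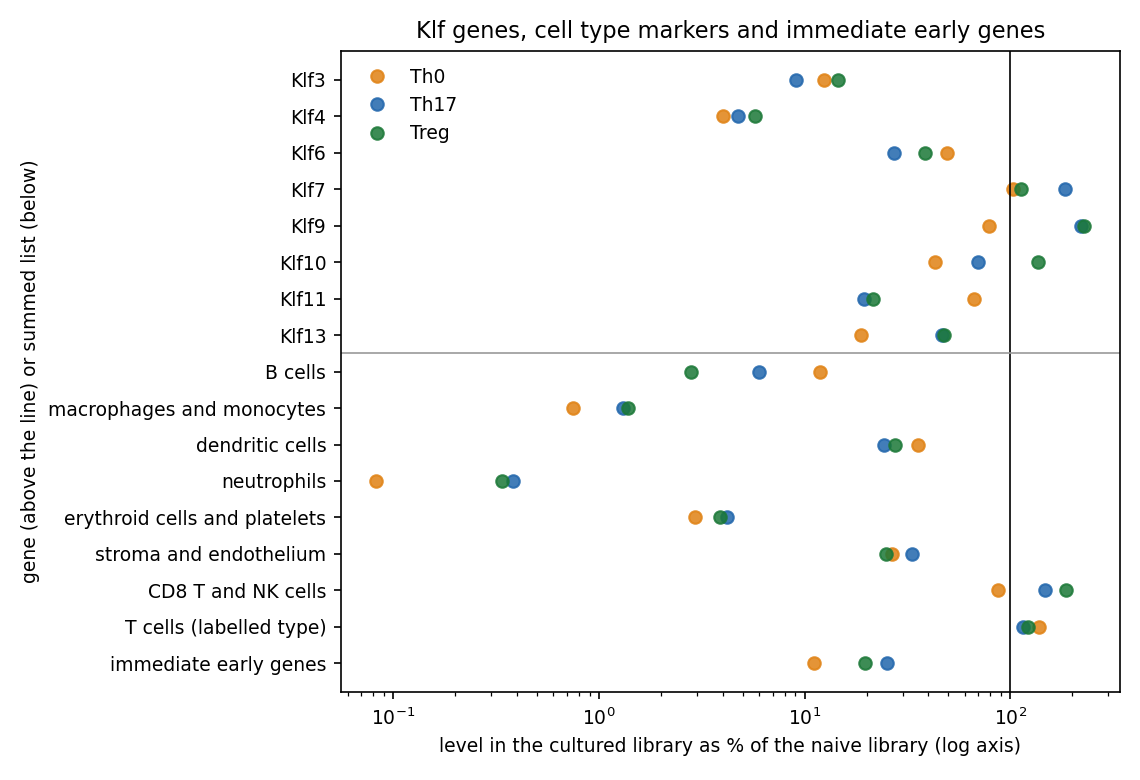
Level in each cultured library as a percent of the naive library (log axis) for 8 Klf genes and, below the line, for the summed CPM of marker lists and of 10 immediate early genes. Macrophage and neutrophil markers lie at or below 1.39%, Klf4 at 4.03% to 5.76%, Klf3 at 9.12% to 14.5%, and T cell markers at 115% to 138%.

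Of the 17 other KLF and SP genes, 11 were compared between Th0 and naive, with 3 higher, 5 lower and a median log2 ratio of -0.77, where 18.5% of all genes were higher and 27.2% lower (median -0.13). Klf2 had 436 CPM in naive and, after culture, 22.8 (Th0), 43.5 (Th17) and 74.6 (Treg), and was 3.26-fold higher in Treg than in Th0. Klf1, the factor of red cell precursors, had 79 counts in naive and 1 to 4 in culture, and the erythroid and platelet markers summed to 227 CPM in naive and 6.62 to 9.50 CPM in culture. Klf16, the close relative of Klf9 and Klf13, met the rule in 0 of 6 comparisons, at 33.7 CPM in naive and 42.0, 42.7 and 37.5 in the Th0, Th17 and Treg cultures. The SP genes Sp1, Sp3 and Sp4, whose products share the GC box with the KLFs and which were picked after their values were seen, were the 3 called higher in Th0 than in naive. Sp3 stood at 436 CPM in Th0 and at 211, 138 and 128 CPM in the naive, Th17 and Treg libraries.

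The corepressor genes are given for the members that recruit them. In the CtBP list of 10, Th0 against naive had 1 higher and 1 lower, where 18.5% and 27.2% of all genes were. Ctbp1 was present in all libraries, at 154 CPM in naive and 139.7, 122 and 104 in the Th0, Th17 and Treg cultures, whereas Ctbp2 had 109, 0, 7 and 11 counts. Fhl3, the gene of a LIM protein that binds KLF3, had 24.1 CPM in Th0 and was called higher in both Th17 (63.7 CPM) and Treg (58.2 CPM). It was the only gene of the CtBP list called against Th0. That is 1 of 9 compared in Th17 and 1 of 10 in Treg, where 20.4% and 20.2% of all genes were called higher. In the SIN3 list of 12, Th17 against Th0 had 4 lower and 0 higher (median log2 ratio -0.56, beside 12.2% lower, 20.4% higher and a median of 0.097 over all genes), and Treg against Th0 had 2 lower and 0 higher (median -0.43, beside 11.9%, 20.2% and 0.081). Against naive, the SIN3 list had 2 higher (Suds3 and Ing2) and 1 lower in Th0 (median 0.54), beside 18.5% and 27.2% of all genes. In Th17 it had 0 higher and 1 lower (median 0.021), beside 15.6% and 17.4%. In Treg it had 0 higher and 0 lower (median 0.075), beside 14.9% and 16.8%. Suds3 and Ing2, subunits of that complex, were at 261 and 68.1 CPM in Th0, 98.8 and 32.9 in Th17, and 128 and 29.7 in Treg. Of the 5 ubiquitin ligases that act on KLF proteins, Fbxw7 was higher in Th17 than in Th0 (27.2 against 9.82 CPM), and the other 4 had no call in that comparison. This is 1 of 5 higher, where 20.4% of all genes were, so the count is near the background.

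Early TGF-beta target genes are given for Klf10 and Klf11. Of 9 compared, Th17 against Th0 had 5 higher and 0 lower (median log2 ratio 1.10), where 20.4% of all genes were higher and 12.2% lower (median 0.097). Treg against Th0 had 5 higher and 0 lower (median 1.23), where the shares were 20.2% and 11.9% (median 0.081). Against naive, the list had 0 higher and 4 lower in Th0 (median -0.76), beside 18.5% and 27.2% of all genes. In Th17 it had 3 higher and 3 lower (median -0.039), beside 15.6% and 17.4%. In Treg it had 3 higher and 2 lower (median -0.075), beside 14.9% and 16.8%. Pmepa1, a feedback inhibitor of the pathway, had 14.2 CPM in naive cells, and 22.3, 80.1 and 119 in the Th0, Th17 and Treg cultures. Itgae, which encodes the CD103 integrin chain, had 18.0, 2.06, 6.51 and 16.8 CPM in the same order. Both were higher in Treg than in Th17, as Klf10 was, although only Itgae met the 2-fold rule there. Klf11 was below its Th0 level in both libraries.

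Glucocorticoid-responsive genes are given for Klf9. Of 9 compared, Th17 against Th0 had 2 higher and 2 lower (median log2 ratio -0.24), where 20.4% of all genes were higher and 12.2% lower. Treg against Th0 had 2 higher and 1 lower (median -0.05), where the shares were 20.2% and 11.9%, so neither count stood far from the background. Against naive, Th17 had 2 higher and 4 lower (median -0.52), where 15.6% of all genes were higher and 17.4% lower. Treg against naive had 1 higher and 4 lower (median -0.73), where the shares were 14.9% and 16.8%. Sgk1 had 122 CPM in naive and, after culture, 12.1 (Th0), 30.8 (Th17) and 53.0 (Treg). Zbtb16 had 11.5, 3.77, 1.53 and 3.61 CPM.

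Genes reported as targets of KLF proteins are given with the shares over all genes. Of 11 compared between Th0 and naive, 2 were higher and 7 lower (all genes 18.5% and 27.2%). Of 12 compared between Th17 and Th0, 5 were higher and 1 lower (all genes 20.4% and 12.2%), and of 13 compared between Treg and Th0, 6 were higher and 0 lower (all genes 20.2% and 11.9%). The higher calls of both comparisons include Il17a and Foxp3, the genes by which Th17 and Treg cells are known. These counts are therefore not read as a result about KLF targets. Cdkn1a, the gene of the p21 cell cycle inhibitor that KLF4 and KLF6 are known to activate, had 13.9 CPM in naive, where both factors were highest, and 215, 425 and 364 CPM in the Th0, Th17 and Treg cultures. Foxp3, which KLF10 has been reported to activate, had 129 CPM in naive and 1.37, 11.3 and 51.5 CPM in the same cultures, and Il17a had 0.244 CPM in naive, 0 counts in Th0, 90.9 CPM in Th17 and 14.7 in Treg. Klf8, a repressor gene known to be held down by KLF3, had 5.78, 1.48, 4.29 and 3.79 CPM.

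Genes with the most similar profile were sought for each member, as the smallest Euclidean distance between profiles of log2(CPM + 1) centred on their mean over the 4 libraries, among 9881 other named genes with at least 10 CPM in a library. The 4 points leave many near matches, and they say nothing of shared control. The nearest to Klf3 were Ms4a6c (distance 0.21), Slfn1 (0.21) and App (0.24), and 4 genes lay within 0.25. For Klf4, the nearest by this measure (Nxpe4, Slc16a9 and Rnd3) had 0 to 0.721 CPM in culture, where the added 1 CPM sets the likeness, so their distances are not given. The nearest to Klf6 were Dpp7 (0.098), Ccdc69 (0.19) and Cd40lg (0.21), and those to Klf11 were Lpin2 (0.18), Tox (0.19) and Rnf122 (0.20). In culture Dpp7 had 2.99 to 5.71 CPM and Rnf122 2.07 to 7.54 CPM, so the added 1 CPM enters into their likeness as well. Klf13 lay nearest to Zfp169 (0.067), Clcn4 (0.11) and Zfp182 (0.12), and Klf9 to Zfp358 (0.053), Ckb (0.11) and Ift57 (0.12), with 32 genes within 0.25. Klf10 lay nearest to Tango2 (0.12), Golm1 (0.15) and Rhof (0.16), and Klf7 to Alg9 (0.12), Ttc4 (0.13) and Oxnad1 (0.15). No member was among the 3 nearest genes of another. Among the members above 10 CPM in a library, the closest profiles were Klf6 and Klf11 (0.82) and Klf3 and Klf4 (0.91), and the most distant were Klf4 and Klf9 (4.07). The added 1 CPM also enters into the distances of Klf4, which had 2.40 to 3.43 CPM in culture.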

How the data were processed

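RNA-seq of 4 mouse CD4+ T cell libraries was used as 1 table of genes. Per the file headers it holds, as deposited, raw counts (whole numbers) and FPKM values of each gene. Bowtie2, RSEM, GRCm38.p6 and mm10 are named in the submitters' processing notes, with neither tool version nor role. For strandedness and annotation the answer is not given in the sources used here. FPKM equalled count divided by gene length and table total, with 1 length per gene, in 8988 of 8988 genes that reached 50 counts in every library (tolerance 0.1%). Groups came from the labelled cell type, with 1 library each, so no test between conditions and no p-value was possible. Counts were scaled with TMM (edgeR 4.0.16, R 4.3.3), with factors from 0.852 to 1.08. Ratios used a pseudocount of 1 CPM for calls and none for folds. Intervals were 95% exact Poisson and Clopper-Pearson intervals, which cover counting error only, and no molecular identifiers are mentioned, and a zero was read as up to 3 counts. Shared sequence was sought with blastn 2.17.0, and overlapping genes in GENCODE vM21 (GRCm38). Alternatives covered scaling (DESeq2 1.42.0, library totals, upper quartile), pseudocount, count filter, unit and depth, with 2 kinds added after seeing the data. Besides all members, the rule named up to 4 list genes with the largest ratios, other Klf genes and the 3 nearest profiles. Ctbp1, Sp1, Sp3, Sp4 and Klf8 were named after their values were seen. The members and lists were chosen with earlier results of these data known. Scripts ran under Python 3.11.15 with scipy 1.17.1, pandas 2.3.3, matplotlib 3.10.9 and numpy 2.4.6.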

Additional observations from a re-analysis of the deposited data

How the results depend on the processing

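Of 124 recomputed counts, 114 stayed within 1.5 times the reported count, and 10 did not. Of 471 recomputed log2 ratios, 431 stayed within the counting interval, 40 moved out of it and 0 of those called changed direction. The higher calls in Th17 against naive went from 1 to 0 with DESeq2 size factors, with 5 CPM added and on the FPKM scale, and those in Treg against naive from 1 to 0 with 5 CPM added and on the FPKM scale; the gene is Klf9 each time. In Th17 against Th0, the higher calls went from 2 to 1 with 5 CPM added, which left Klf13. The lower call of Klf11 against Th0 was lost on the FPKM scale, giving 0 for Th17 and 0 for Treg. The FPKM scale changes both the scaling and the added constant, and the cause was not tested; with library totals alone the Klf11 log2 ratios were -1.32 and -1.16. When genes had to reach 10 CPM in the Th17 or the Treg library, a restriction chosen after seeing the data, 6 members were compared and the lower calls against naive went from 5 to 3 in Th17 (8.30% of genes) and from 5 to 3 in Treg (7.33% of genes), since Klf4 and Klf11 fall below that level by construction. TMM factors from the 3 cultured libraries alone, also chosen later, changed 0 of the counts. Library totals moved the median log2 ratio of all genes by -0.25 (Th0 against naive), 0.27 (Th17 against Th0) and 0.31 (Treg against Th0). Over all genes, 5 CPM added lowered the counts of calls by more than 1.5 times in at least 1 direction of each comparison: lower calls of Th0 against naive from 3803 to 2324, higher and lower calls of Th17 against naive from 2272 and 2534 to 1380 and 1595, of Treg against naive from 2140 and 2415 to 1313 and 1499, of Th17 against Treg from 259 and 162 to 95 and 61, and higher calls against Th0 from 2720 to 1471 in Th17 and from 2658 to 1349 in Treg. The FPKM scale gave 1458 higher calls for Th0 against naive (2590), 681 and 597 lower calls for Th17 and Treg against Th0 (1622 and 1565), and 113 and 89 for Th17 against Treg. A pseudocount of 0.25 CPM gave 419 and 335 there. The 10 CPM restriction gave 1636, 794 and 701 lower calls for Th0, Th17 and Treg against naive. The count of member pairs beyond counting error ran from 40 to 44 of 54; the FPKM columns gave none, having no counts. No paired analysis was possible because each group had 1 library.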
